A study of Mus musculus with 8 samples.

Results

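The mirtron-type 5p miRNAs of this account are the mouse miRNAs named miR-N-5p with a number N from 6900 to 7100. They were picked by name alone, and 192 of the 1881 miRNAs on the array met the rule. The 191 3p miRNAs of the same numbers served as the comparison. Both arms were on the array for 190 numbers, while 2 5p miRNAs had no 3p partner and 1 3p miRNA had no 5p partner. The remaining 1498 miRNAs are called the other miRNAs.

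The study measured miRNAs in exosomes, small vesicles released by cells, from mouse amniotic fluid on 1-colour Agilent arrays. In the LPS preterm group (4 samples), pregnant mice received lipopolysaccharide, a bacterial wall component that triggers inflammation, at 100 µg/kg into the abdomen on day 14, and preterm birth followed about 48 h later. The control group (4 samples) came from cesarean sections, and the labels do not say how those mice were treated. Every sample is labelled as day 17 of pregnancy, so it is not settled whether the groups match in gestational age, and neither the strain nor the mothers' age is given in the labels. Nor do the labels say whether samples came from separate animals, so p-values refer to the spread among these samples alone, and the number of arrays limits the precision.

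A mirtron is a short intron that, once spliced out and debranched, folds into a hairpin that Dicer can cut. It thereby skips Drosha, the nuclease that releases most miRNA hairpins. Dicer leaves a 5p and a 3p strand, of which one is usually kept by an Argonaute protein and the other is degraded, and the 3p strand of a mirtron ends at the acceptor splice site, where introns end in AG. The label mirtron-type was checked against hairpin sequences. RefSeq (GRCm38.p6) holds 168 of the 192 5p miRNAs and 167 of the 191 3p miRNAs. The 163 hairpins of the 5p miRNAs all lay within the span of a protein-coding gene, against 489 of 842 other hairpins (58.1%). The strand of the genes was not compared, and a miRNA called from a gene below lies within its span on either strand. Of these 163, 152 (93.3%) ended in AG, against 86 of the 842 others (10.2%). Introns start with GU, and 25 of the 163 hairpins (15.3%) began with these letters, while 20 (12.3%) had both GU at the start and AG at the end.

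The hairpins of the pair of 5p miRNAs that passed the group test are shown first, with the 5p and the 3p arm in capitals. Mir7075 lies at chr8:107096025-107096106 on the minus strand, within Terf2, which encodes a telomere-binding protein, and Mir6974 at chr17:35204475-35204557 on the minus strand, within Lta, which encodes the cytokine lymphotoxin alpha (both GRCm38.p6).
Mir7075: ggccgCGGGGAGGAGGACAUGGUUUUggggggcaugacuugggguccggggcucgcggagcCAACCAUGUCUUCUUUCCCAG
Mir6974: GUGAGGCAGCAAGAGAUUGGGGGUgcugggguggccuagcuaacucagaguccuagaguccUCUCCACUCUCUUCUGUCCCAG
In both, the 5p arm is rich in G and the 3p arm is rich in C and U and ends in AG. In Mir6974 the 5p arm begins at base 1, with GU, while in Mir7075 it begins at base 6.

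The mature sequences below belong to the pair that passed the test, to 3 of the brightest 5p miRNAs, to the undetected 3p arm of the last of these, shown for its contrast in base content, and to the 1 3p miRNA that was bright enough to be tested. Capitals mark the seed, bases 2 to 8, through which a miRNA mainly recognises its targets.
miR-7075-5p: cGGGGAGGaggacaugguuuu
miR-6974-5p: gUGAGGCAgcaagagauugggggu
miR-7047-5p: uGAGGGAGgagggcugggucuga
miR-6937-5p: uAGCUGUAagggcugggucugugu
miR-7082-5p: uACGGGCAggaggaggggagg
miR-7082-3p: gCCCCCCUugcugucugucucc
miR-6976-3p: aUCUCCCUcccaacuccccag
By their medians the 5p strands were rich in G and the 3p strands in C, although single sequences differed. The median G content was 43.7% in the 168 5p sequences and 14.3% in the 167 3p sequences, whereas the median C content was 13.6% and 40.9%. A run of 4 G (GGGG, searched on the miRNA strand) occurred in 61 of the 168 5p sequences (36.3%), in 1 of the 167 3p sequences and in 120 of 1273 other miRNAs of the array with a RefSeq sequence (9.43%). The 3p sequences ended in AG in 132 of 167 cases (79.0%).

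Seeds were mostly private to a single 5p miRNA. The 168 sequences held 147 distinct seeds, and 18 seeds were shared by 39 miRNAs, 15 by a pair and 3 by a trio. In 10 of these 18 groups at least 1 miRNA was detected on some array and another was detected on none. The seed of miR-7075-5p was such a case, shown here because all 3 sequences carry the same capitals.
miR-7075-5p: cGGGGAGGaggacaugguuuu
miR-7030-5p: uGGGGAGGuggcugugcuaguc
miR-7076-5p: aGGGGAGGugguauggucuca
The scanner software marked miR-7075-5p as detected on all 8 arrays, and miR-7030-5p and miR-7076-5p on 0. The 3′ parts of the sequences, to which the array probes are complementary, differ among the 3.

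Before the results by miRNA, 1 array needs mention. The first LPS array had the fewest 5p miRNAs of all, and on several of them it lay near the cesarean arrays rather than near the other LPS arrays, so the values that turn on it are given with and without it. It was singled out from these same values, so calls gained without it are a description and support nothing. All 8 arrays were on 1 slide, with the cesarean arrays in its second row and the LPS arrays in its first, so slide row and group cannot be told apart. The brightness used for scaling (log2 of the 75th percentile over 618 probes seen on all arrays) ranged from 7.74 to 8.81 in the cesarean arrays and from 7.72 to 8.67 in the LPS arrays, and the spike-in probes from 10.92 to 11.06 and from 10.84 to 11.02. Of the markers of other sources of RNA, 3 of 3 blood miRNAs were above 0 in the group difference, with 1 past the test. The log2 of their summed signal was 13.78 to 14.92 with LPS and 13.08 to 13.94 in the controls. That sum was mostly miR-451a (mean 13.84 over 8 arrays), while the 1 that passed, miR-144-3p, had a mean of 4.32. Of 5 epithelial and skin miRNAs, 4 were above 0 and 3 passed, with a log2 summed signal of 10.34 to 11.88 and 9.51 to 9.91. Both leukocyte miRNAs that could be tested, of 3, were above 0 and 1 passed (9.03 to 9.63 and 8.84 to 9.48). That sum was mostly miR-223-3p (mean 9.14), while the 1 that passed, miR-142a-3p, had a mean of 4.67. The 1 liver miRNA (5.04 to 9.81 and 3.75 to 7.02) and the 3 of striated muscle (6.47 to 10.29 and 7.55 to 8.46) were also all above 0, but gave no call. The part of these sources in the results below was not tested.

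Detection was the main contrast between the arms. A miRNA was counted as detected where the scanner software set its gene-level detection mark. In the cesarean arrays 1 to 4, 100, 89, 80 and 72 of the 192 5p miRNAs were detected (85.3 ± 12.0, SD, n = 4), and in the LPS arrays 1 to 4, 53, 86, 87 and 86 (78.0 ± 16.7, SD, n = 4). Without the first LPS array the LPS mean was 86.3 ± 0.577 (SD, n = 3), above the cesarean mean instead of below it. The groups overlapped, with 3 LPS arrays inside the cesarean range and the first LPS array below it. For the 191 3p miRNAs the counts were 5, 6, 7 and 5 in the cesarean arrays and 4, 4, 5 and 4 in the LPS arrays. On each of the 8 arrays the 5p count was therefore 11.4 to 21.5 times the 3p count.

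Expressed as shares, 27.6% to 52.1% of the 5p miRNAs were detected per array, against 2.09% to 3.66% of the 3p miRNAs and 27.0% to 35.3% of the other miRNAs. The 5p share was above that of the other miRNAs on all 8 arrays, by the least on the first LPS array, at 27.6% against 27.3%. On that array 409 other miRNAs were detected, the fewest of the LPS arrays, as LPS arrays 2 to 4 had 456, 503 and 442. Cesarean arrays 1 to 4 had 529, 523, 404 and 438, and on cesarean array 3, with 404, 80 5p miRNAs were detected. Whether a general loss of signal on the first LPS array played a part was not tested. By the stricter mark of a probe well above background, 23.4% to 44.8% of the 5p and 0.524% to 1.57% of the 3p miRNAs were measured.

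**Figure D1:**
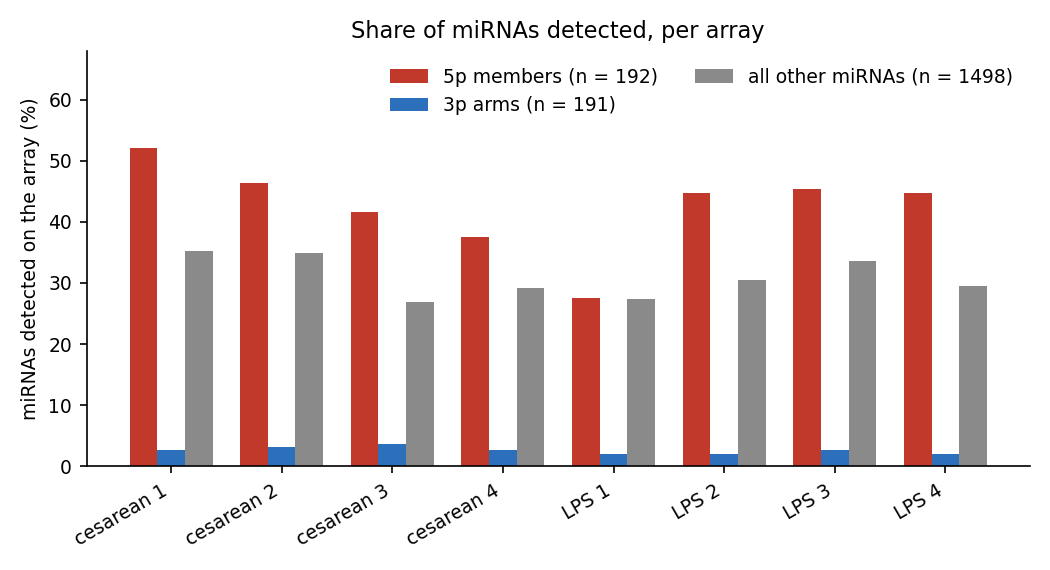
Bars give, for each of the 8 arrays, the share in percent of the 192 5p miRNAs (red), the 191 3p miRNAs (blue) and the 1498 other miRNAs (grey) that the scanner software marked as detected. The red bars stand between 27.6% and 52.1% and the blue bars between 2.09% and 3.66%, and the red bar is lowest on the first LPS array.

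Most 5p miRNAs were detected either on every array or on none. There were 52 on all 8 arrays (27.1%), 89 on none (46.4%) and 51 on some. Of the other miRNAs, 340 (22.7%) were detected on all and 904 (60.3%) on none. Of the 3p miRNAs, 1 was detected on all 8 arrays, 180 (94.2%) on none and 10 on some. Among the 190 numbers with both arms, 94 had only the 5p arm detected on any array, 3 only the 3p arm, 8 both and 85 neither.

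The few 3p miRNAs that were seen were mostly at the edge of detection. After miR-6976-3p, with 8 arrays, came miR-7080-3p with 7, miR-7033-3p and miR-7022-3p with 6 each, and miR-7028-3p and miR-7047-3p with 4 each. The other 5 were seen on 1 array each. Apart from miR-6976-3p, none of the 11 was well above background on more than 3 arrays. The 5p arm of miR-7033, miR-7028 and miR-7047 was detected on all 8 arrays, whereas that of miR-6976 was detected on 0.

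GC content did not separate the arms, but its 2 components did. The part of the brightest probe that binds the miRNA had a median GC content of 57.1% for the 5p (quartiles 53.2% and 66.7%) and also 57.1% for the 3p miRNAs (quartiles 51.7% and 64.3%), against 52.6% for the other miRNAs. Probe length was also close, with a median of 15 bases for 5p and 14 for 3p. The split by base was not: 5p probes had a median of 42.3% C and 14.3% G, and 3p probes 14.3% C and 42.9% G. Since a probe is the complement of its target, this mirrors the base content of the strands. The probes of miR-7082 illustrate it in an extreme case, as the 76.9% C of the 5p probe was the highest of the 5p miRNAs.
miR-7082-5p probe: cctcccctcctcc
miR-7082-3p probe: ggagacagacagca
The first lacks G altogether and read 9.29 on the log2 scale (mean of 8 arrays), and the second was well above background on no array.

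**Figure D2:**
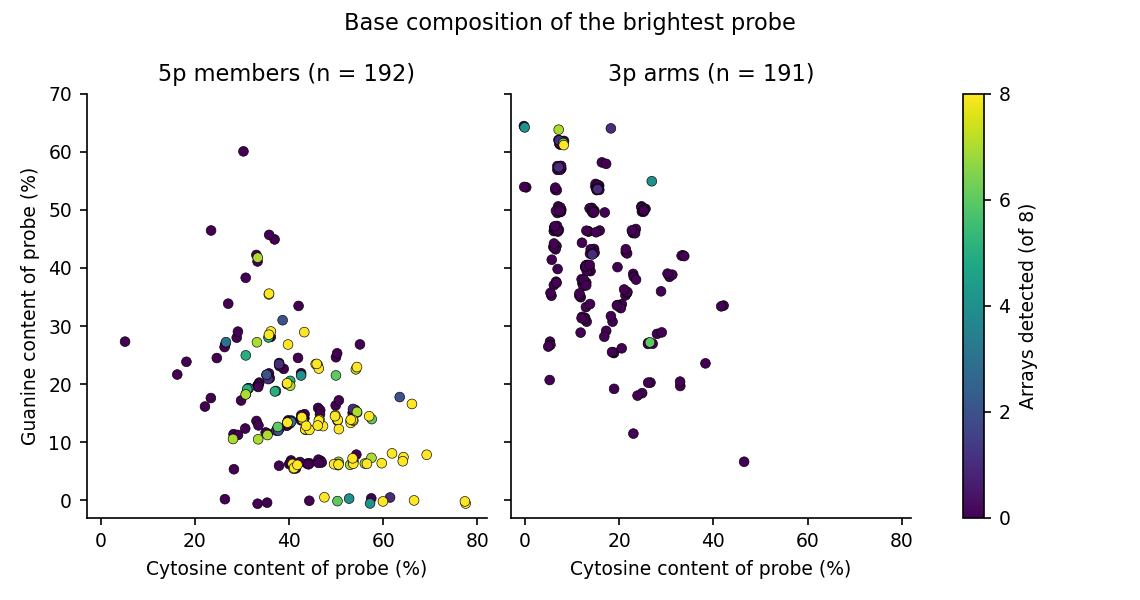
Each point is the brightest probe of a miRNA, placed by its cytosine content (x axis, %) and guanine content (y axis, %), with a small shift to separate equal values, and coloured by the number of arrays, of 8, on which the miRNA was detected. The 5p probes (left) centre on 42.3% cytosine and 14.3% guanine and the 3p probes (right) on 14.3% and 42.9%, and most 3p points have the colour of 0 arrays.

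Within the 5p miRNAs, detection went with the C content of the probe. Below 30% C (19 miRNAs), 6.58% were detected per array on average, from 30% to 40% (52) 26.2%, from 40% to 50% (66) 42.2%, from 50% to 60% (43) 66.3%, and at 60% or more (12) 86.5%. The other miRNAs had the same order at somewhat higher shares, with 21.3%, 30.1%, 51.3%, 68.8% and 93.4% in these classes. So in every C class the 5p miRNAs were detected no more often than the others, although they were detected more often overall. A total of 179 of the 191 3p probes were in the class below 30% C, where 2.79% were detected per array, against 6.58% of the 5p and 21.3% of the other miRNAs. Of the 9 3p miRNAs from 30% to 40% C and the 3 from 40% to 50%, 0% were detected. Below 30% C, 2 of the 19 5p miRNAs and 11 of the 179 3p miRNAs were detected on any array. C content was not matched within that class, so whether the arms differ at like C content was not tested. Across the 192 5p miRNAs, Spearman's rho between probe C content and mean log2 signal was 0.45, against 0.32 for GC content, -0.20 for G content and 0.06 for probe length. Across the 191 3p miRNAs it was -0.02 for C content and 0.16 for G content. These correlations are across miRNAs that share the same arrays and labelling, many of them at the lowest value, and they are given as a description.

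GC content by itself gave a different picture in each arm. From 60% to 70% GC, 60.6% of the 66 5p miRNAs, 4.17% of the 63 3p miRNAs and 39.9% of the 280 other miRNAs were detected per array. Below 50% GC the shares were 24.2% of 31, 0% of 34 and 25.1% of 596. In both GC classes the 5p share was above the 3p share.

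**Figure D3:**
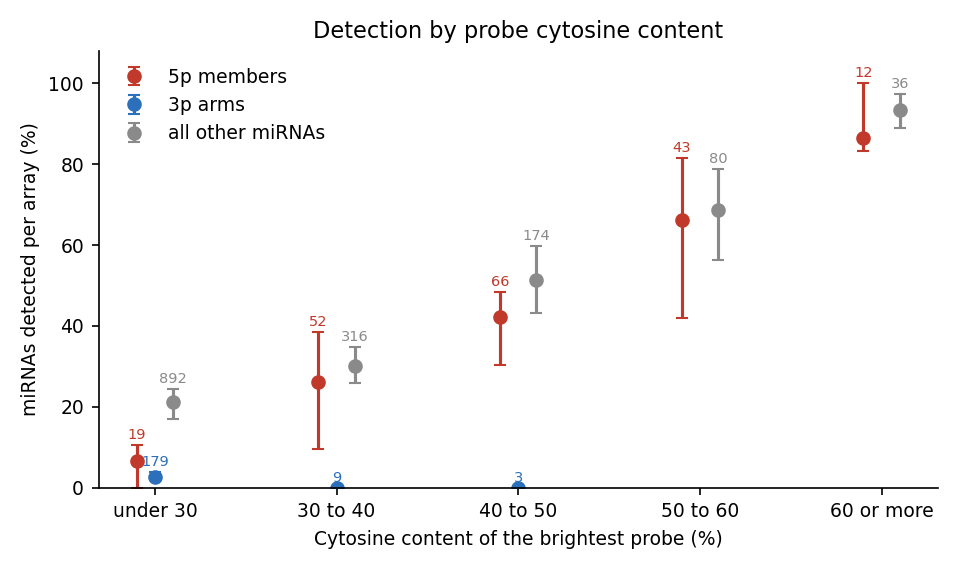
Points give the mean share of miRNAs detected per array (y axis, %) in 5 classes of probe cytosine content (x axis, %), for the 5p miRNAs (red), the 3p miRNAs (blue) and the other miRNAs (grey). Bars span the lowest and highest of the 8 arrays and the numbers above them are miRNAs in the class, so the red points climb from 6.58% to 86.5% and the grey from 21.3% to 93.4%.

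Signal is given as log2 of the scaled intensity. Values below the lowest signal that was reliably above background were set to a floor of 3.75. A signal also depends on the probe, so its height does not rank miRNAs by abundance. By their brightest probe, 45 5p miRNAs were well above background on all 8 arrays, with mean signals from 4.62 to 11.83 (median 6.56), and 106 were at the floor on all 8. Together, the 5p miRNAs carried 4.50% to 7.76% of the summed signal of an array and the 3p miRNAs 0.0540% to 0.104%. The 5p share was 6.53% ± 1.14 in the cesarean and 5.20% ± 0.844 in the LPS arrays (SD, n = 4 each), with overlapping ranges of 5.26% to 7.76% and 4.50% to 6.37%.

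The brightest of all was miR-7047-5p, with the twelfth brightest signal of the 1881 miRNAs. Its signal was 12.13, 11.85, 12.40 and 11.90 in the cesarean arrays and 12.13, 11.37, 11.52 and 11.31 in the LPS arrays. The groups overlapped through the first LPS array, and the difference of -0.49 ± 0.26 (SE) did not pass (limma adjusted p = 0.256). The 3p arm was well above background on 1 of 8 arrays.

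Next came miR-6937-5p, from Adi1, which encodes an enzyme of methionine salvage. It read 11.28, 10.68, 11.60 and 11.02 in the cesarean arrays and 10.92, 10.53, 10.66 and 10.36 in the LPS arrays, again overlapping, with a difference of -0.52 ± 0.26 (SE; limma adjusted p = 0.234). The 3 highest values were all from cesarean arrays.

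These leading signals were not independent by sequence. The probes of miR-7047-5p and miR-6937-5p share a run of 12 bases, in capitals, and the second probe of miR-6937-5p, 1 base shorter, holds 11 of them.
miR-7047-5p, 14 bases: tCAGACCCAGCCCt
miR-6937-5p, 15 bases: acaCAGACCCAGCCC
miR-6937-5p, 14 bases: acaCAGACCCAGCC
The 15-base probe of miR-6937-5p read 10.88 and its 14-base probe 4.85 (means of 8 arrays), a gap of 6.03 on the log2 scale for the same RNA. Both were well above background on all 8 arrays. Over the 45 5p miRNAs measured on all arrays, the gap between the brightest and the dimmest probe of a miRNA had a median of 0.49 (quartiles 0.21 and 1.46), and 6 (13.3%) exceeded 2. For 290 other miRNAs the median was 0.89, and 42 (14.5%) exceeded 2. The brightest probe was the longer one in 41 of the 45.

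The other 8 of the 10 brightest 5p miRNAs had mean signals from 8.09 to 9.60, in falling order miR-7042-5p, miR-7040-5p, miR-7082-5p, miR-6931-5p, miR-6908-5p, miR-6984-5p, miR-6944-5p and miR-6995-5p. The spread between arrays of a group had a median SD of 0.40 over the 45. The most variable of the 8 was miR-6931-5p, from Dcakd, with 8.06, 10.77, 8.60 and 9.03 in the cesarean and 10.16, 7.70, 9.32 and 8.03 in the LPS arrays. High and low arrays occurred in both groups, and its difference of -0.31 ± 0.66 (SE) did not pass (limma adjusted p = 0.822). None of these 8 passed, at limma adjusted p from 0.159 to 0.895. Without the first LPS array the difference of miR-6984-5p went from -0.72 to -0.42, that of miR-6995-5p from -0.62 to -0.35 and that of miR-6931-5p to -0.76. The 3p arms of all 8 were well above background on 0 arrays.

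The comparison of LPS preterm birth with cesarean section covered the 470 miRNAs that in 1 group or both had 3 or 4 arrays well above background. Of the 192 5p miRNAs, 71 entered. Of these, 60 met that filter in both groups, 6 only through the cesarean and 5 only through the LPS arrays, so the tested ones do not stand for all 192. Of the 3p miRNAs 1 entered. A gene counted as changed at a limma adjusted p under 0.05, adjusted over all 470. Among the 71, 2 fell with LPS, miR-7075-5p and miR-6974-5p, and 0 rose. Over all 470, 23 passed (4.89%), 11 lower (2.34%) and 12 higher (2.55%). At an unadjusted p under 0.05 stood 10 of the 71, 8 lower and 2 higher, beside 118 of the 470 (25.1%). Of the 398 other miRNAs that were tested, 44 were lower and 63 higher at that p. These counts include miRNAs that entered through 1 group only, among them miR-6958-5p (lower) and miR-7053-5p (higher). They also include miR-7068-5p (lower), whose LPS values were at or near the floor. Both shares of the 71, called and unadjusted, lay below the background, so the 5p miRNAs are not marked by many calls.

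As a list the 71 sat slightly lower with LPS. The median difference was -0.24, against -0.06 over all 470, and 49 of the 71 were below 0, against 256 of 470 (54.5%). Restricted to miRNAs measured on all 8 arrays, the medians were -0.23 (45 miRNAs) and -0.13 (336). The size was within the spread between arrays: the median deviation of the 71 from their own means was 0.30, -0.15, 0.24 and -0.01 in the cesarean arrays and -0.44, 0.13, -0.36 and 0.28 in the LPS arrays. Arrays of each group lay on both sides of 0, and the lowest was the first LPS array. Without that array the median was -0.11.

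**Figure D4:**
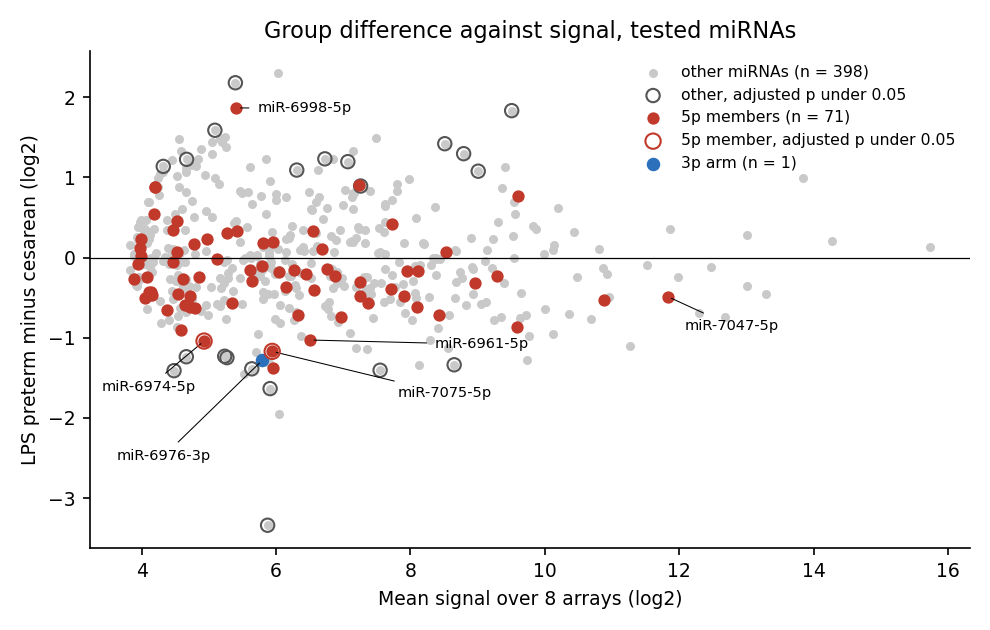
Each point is 1 of the 470 tested miRNAs, placed by its mean signal over 8 arrays (x axis, log2) and its LPS minus cesarean difference (y axis, log2), with 5p miRNAs in red, the single 3p miRNA in blue and other miRNAs in grey. Rings mark a limma adjusted p under 0.05, in red for the 5p miRNAs, and the red rings are miR-7075-5p at -1.17 and miR-6974-5p at -1.04.

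The strongest difference by p-value was that of miR-7075-5p (chr8:107096081-107096101, minus strand, GRCm38.p6). Its signal was 6.64, 6.51, 6.67 and 6.28 in the cesarean arrays and 4.99, 5.58, 5.20 and 5.67 in the LPS arrays. Every LPS value was below every cesarean value. It fell by 1.17 on the log2 scale (SE 0.24), or 2.25-fold (limma adjusted p = 0.0268). It rests on 1 of its probes, which differ by the base in capitals.
miR-7075-5p, 16 bases: aaaaccatgtcctcct
miR-7075-5p, 17 bases: aaaaccatgtcctcctC
The 17-base probe was well above background on 8 arrays and the 16-base probe on 0. The difference was smaller with the mean of its probes (-0.58, limma adjusted p = 0.0543), the scanner's total per miRNA (-0.53, limma adjusted p = 0.451), the deposited value table (-0.65, limma adjusted p = 0.0585) and normexp background correction (-0.59, limma adjusted p = 0.0213). The 3p arm was detected on 0 arrays.

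The second 5p miRNA to pass was miR-6974-5p (chr17:35204534-35204557, minus strand, GRCm38.p6). It read 5.96, 4.97, 5.38 and 5.49 in the cesarean arrays and 4.16, 4.38, 4.48 and 4.61 in the LPS arrays, again without overlap. It fell by 1.04 on the log2 scale (SE 0.26), or 2.06-fold (limma adjusted p = 0.0467). Here both probes, of 15 and 16 bases, gave a difference of -1.04. The 3p arm was detected on 0 arrays. Both calls were lost when any cesarean array, or LPS array 2 or 3, was left out, and when slide column was a block in the fit. That of miR-6974-5p was also lost without LPS array 4 (limma adjusted p = 0.0518), with scaling over all probes (limma adjusted p = 0.0558), with the floor 2 times as high (-0.70, limma adjusted p = 0.122) and with normexp (-0.35, limma adjusted p = 0.0694).

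Groups did not overlap for 6 of the 71 (8.45%), all with LPS below, against 80 of all 470 (17.0%). Among the 398 other miRNAs that were tested, LPS lay below in 28 and above in 46. Beside the pair above these were miR-6961-5p, miR-7068-5p, miR-7045-5p and miR-7011-5p, the last 3 named here after their values were seen. Closest to the threshold was miR-6961-5p, from Bin2, which encodes a protein of white blood cells. It read 7.36, 6.73, 7.12 and 6.86 in the cesarean and 5.54, 5.94, 5.82 and 6.66 in the LPS arrays. The fourth LPS array came close to the lowest cesarean value, and the difference of -1.03 ± 0.29 (SE) missed the threshold (limma adjusted p = 0.0640). Without the fourth LPS array it was -1.25 (limma adjusted p = 0.0269). Its second probe gave -0.97. For the other 3, the differences were -0.50, -0.57 and -0.48 (limma adjusted p from 0.158 to 0.241). Of these, miR-7068-5p was at the floor of 3.75 on LPS arrays 1 and 3. Its LPS mean was 3.79, and its cesarean arrays read from 4.14 to 4.46. Its separation and its p therefore lean on the floor.

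Further down were miR-7040-5p and miR-6958-5p. The signal of miR-7040-5p was 9.76, 10.56, 9.76 and 9.98 in the cesarean and 10.03, 9.1, 8.91 and 8.55 in the LPS arrays. The first LPS array was inside the cesarean range and the other 3 were below it (difference -0.86 ± 0.34, SE; limma adjusted p = 0.159). Without that array the difference was -1.16 (limma adjusted p = 0.0252). For miR-6958-5p the difference was -0.90 ± 0.36 (SE; limma adjusted p = 0.160), and 2 of the 4 LPS arrays were at the floor. It entered the test only through the cesarean arrays, where it is high, so its p supports nothing.

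On the upper side, no 5p miRNA passed. The 2 with an unadjusted p under 0.05 were miR-6998-5p, from Fubp3, and miR-7053-5p, from Pold1, a gene for the catalytic subunit of a DNA polymerase. In the cesarean arrays miR-6998-5p read 4.87, 3.75, 5.31 and 3.98, and in the LPS arrays 3.75, 7.10, 6.49 and 8.03. The first LPS array was at the floor and the other 3 were above all cesarean arrays (difference 1.87 ± 0.79, SE; limma adjusted p = 0.171). Its second probe gave 1.65. For miR-7053-5p the cesarean arrays were all at the floor, and the LPS arrays read 3.75, 5.02, 4.37 and 5.41 (difference 0.89 ± 0.34, SE; limma adjusted p = 0.146). It entered the test only through the LPS arrays, where it is high, so its p supports nothing. Its second probe gave 0.13, and the difference was 0.23 with the floor 2 times as high and 1.18 without the first LPS array (limma adjusted p = 0.0240). Among the brightest, miR-7042-5p had the same shape, with 9.73, 8.56, 9.47 and 9.1 in the cesarean and 8.32, 10.50, 9.96 and 11.18 in the LPS arrays (difference 0.77 ± 0.54, SE; limma adjusted p = 0.399). Without the first LPS array it was 1.33 (limma adjusted p = 0.0322).

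Leaving out the first LPS array raised the calls among the 71 from 2 to 8, and those among all 470 from 23 to 79 (16.8%). The 8 were miR-7075-5p, miR-6974-5p, miR-7040-5p and miR-7015-5p, lower with LPS, and miR-6998-5p, miR-7042-5p, miR-7053-5p and miR-6987-5p, higher, with miR-7053-5p open to the filter as said. For miR-6998-5p the difference was then 2.73 (limma adjusted p = 0.00805). The calls gained rest on leaving out an array that was chosen from the values of these same miRNAs. The share of 5p miRNAs called, 8 of 71, was again below that of all tested miRNAs.

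**Figure D5:**
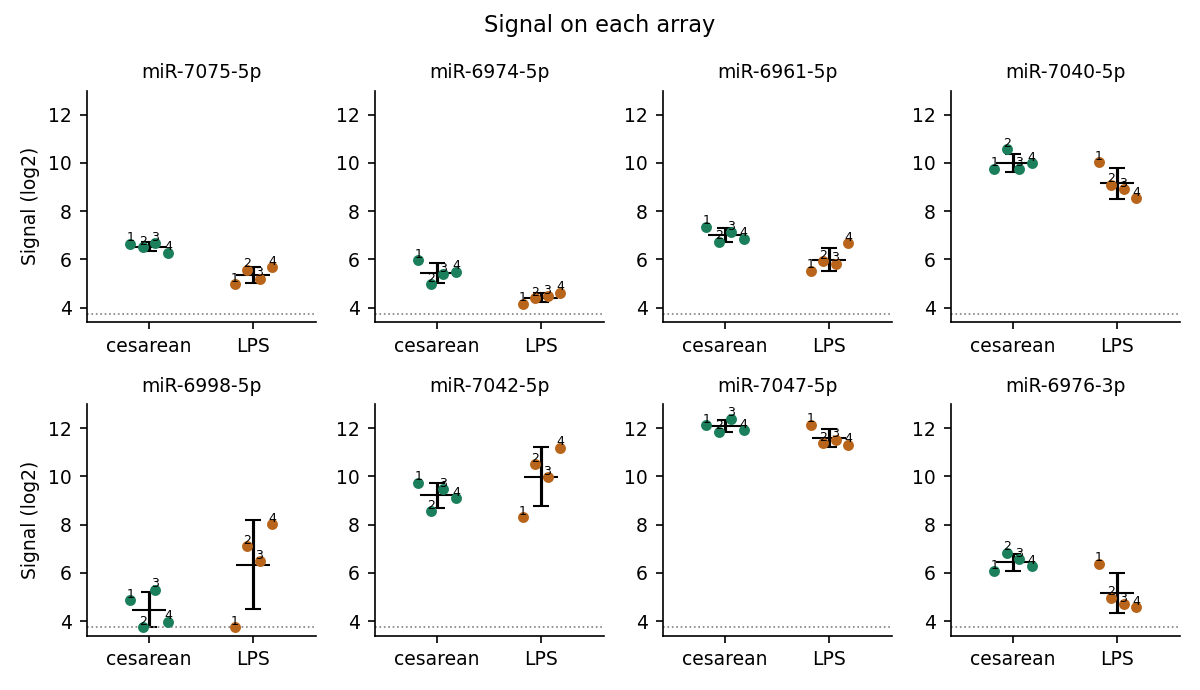
Panels show the log2 signal of 7 5p miRNAs and miR-6976-3p on each array (points, numbered by replicate), with the group mean and SD (black) and the floor of 3.75 as a dotted line. The groups are apart for miR-7075-5p, miR-6974-5p and miR-6961-5p, while the first LPS array lies with the cesarean arrays for miR-7040-5p and miR-6976-3p and below the other LPS arrays for miR-6998-5p and miR-7042-5p.

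Of the 3p miRNAs only miR-6976-3p could be tested, from Srf, which encodes serum response factor. It read 6.06, 6.84, 6.56 and 6.28 in the cesarean arrays and 6.38, 4.97, 4.70 and 4.59 in the LPS arrays. The first LPS array was within the cesarean range and the other 3 were below it. The difference of -1.28 ± 0.39 (SE) did not pass (limma adjusted p = 0.0778), and without the first LPS array it was -1.69 (limma adjusted p = 0.00805). Its probes differ by the base in capitals, and here the shorter was the bright one.
miR-6976-3p, 13 bases: ctggggagttggg
miR-6976-3p, 14 bases: ctggggagttgggA
The 13-base probe was well above background on 8 arrays and the 14-base probe on 0. Because no number had both arms tested, whether the arms of a hairpin responded differently could not be tested.

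Last, some 5p miRNAs were seen in 1 group. By the gene-level mark, miR-6904-5p was detected on 4 cesarean and 0 LPS arrays, and miR-6948-5p and miR-7051-5p on 3 and 0, while 0 were detected on at least 3 LPS arrays and 0 cesarean arrays. Of the 1498 other miRNAs, 4 were detected on at least 3 cesarean and 0 LPS arrays, and 4 the other way round. No probe of miR-6904-5p, miR-6948-5p or miR-7051-5p was well above background on an LPS array, and all their LPS values were at the floor. In the cesarean arrays miR-6904-5p, from Parp1, a gene of DNA repair, read 3.75, 5.05, 4.27 and 3.75, and miR-6948-5p read 3.75, 3.91, 4.15 and 4.26. For miR-7051-5p 1 cesarean array read 3.98 and the other 3 were at the floor. With both groups at or near the floor no fold is given. The test of miR-6948-5p did not pass (limma adjusted p = 0.465). It entered only through the cesarean arrays, so its p supports nothing. The others were too dim to be tested. The reverse pattern appeared for miR-6912-5p by its brightest probe, which was well above background on 3 LPS and 0 cesarean arrays, but the gene-level mark was set on all 4 cesarean arrays, and its difference of 0.88 ± 0.47 (SE) did not pass (limma adjusted p = 0.256). As miR-6912-5p entered the test only through the LPS arrays, its p supports nothing.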

How the data were processed

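Exosomal RNA of 8 amniotic fluid samples was read on Agilent miRNA arrays, with Feature Extraction 10.7.1.1 per the file headers and 9.1 per the submitters' processing notes. The labels call the labelled material cRNA, and the labelling step for miRNAs is not given there. The deposited spot intensity values are background-subtracted and not normalized between arrays, per the file headers. A deposited table of log2 values, normalized by the authors (method not given in the sources used here), served as an alternative.

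Outlier and control spots were left out. Signals were scaled by each array's 75th percentile over 618 probes detected on all arrays, raised to a floor of 13.5 (log2 3.75) and put on the log2 scale. The brightest probe stood for a miRNA. Well above background means that 0.5 or more of a probe's kept spots had that scanner mark. Tests used limma 3.58.1 in R 4.3.3 (lmFit, eBayes, two-sided, Benjamini-Hochberg over 470 miRNAs, threshold 0.05), tested on simulated data. The simulated differences were larger than those of the 5p miRNAs called here and no floor was applied, so the simulation does not cover differences of their size. Other software was Python 3.11.15 with pandas 2.3.3, numpy 2.4.6 and matplotlib 3.10.9. Named were 5p miRNAs past the threshold, the 10 brightest, up to 5 per direction with an unadjusted p under 0.05 and the largest differences, those seen on 3 or more arrays of 1 group and 0 of the other, their 3p arms, and the 5 brightest 3p miRNAs. The miRNAs and marker lists were chosen with earlier results of these data known. Gene spans come from RefSeq, and whether a hairpin is intronic or exonic was not analysed here. Alternatives covered scaling, background, floor, filter, probe summary, the deposited table, the slide column and each array left out.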

Additional observations from a re-analysis of the deposited data

Results flagged for a closer look

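Counts of detected miRNAs, the 5p share of summed signal, the median deviation of the tested 5p miRNAs and the signals of the 19 named miRNAs that were tested were screened. Each group of 4 was searched for an array standing apart from the other 3, by its gap to the nearest relative to the group's range. Of 46 groups checked 2 were marked, and chance marks about 1 in 20, so the marks are no more than chance would give. In the LPS group the count of detected 5p miRNAs was 53 on the first array and 86, 87 and 86 on the others. In the same group the count of detected 3p miRNAs was 5 on the third array and 4 on the others, a difference of 1 miRNA. No cesarean count, no signal of these 19, no summed signal share and no median deviation was marked.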

How the results depend on the processing

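The count of 2 5p miRNAs past the threshold became 1 with scaling over all probes, with the floor 2 times as high, with the mean of probes, with the deposited value table and with normexp. It became 0 with no scaling, with scaling to spike-ins, with no filter and with the scanner total per miRNA. With the slide column as a replicate block the count was also 0, and as the labels pair no samples this block rests on position alone. Leaving out 1 array gave 0 to 8, with 8 only without the first LPS array, 2 without the fourth (miR-7075-5p and, in place of miR-6974-5p, miR-6961-5p) and 0 without each of the other 6. The 3p count of 0 (1 at an unadjusted p under 0.05) stayed 0 except for 1 without the first LPS array (range 0 to 1). The median difference of the tested 5p miRNAs ranged from -0.40 to 0.00 over all alternatives, within the spread between arrays, and it was 0.00 with no filter, where most miRNAs are at the floor. Without scaling the median of all tested miRNAs was -0.20 and that of the 5p miRNAs -0.38. The mean 3p detection share of 2.62% was 0.982% by the well above background mark, 1.40% in the lower and 3.90% in the upper part of the number range, split at 7000. The median GC content of the 5p mature sequences was 59.1%, against 57.1% of the probes.

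Among 373 values of named miRNAs under alternatives, 10 changed sign and none of these passed. With 1 array left out, miR-6931-5p ranged from -0.76 to 0.24, above 0 without the second array of either group, and miR-6908-5p from -0.034 to 0.21, below 0 without cesarean array 1 or LPS array 1 or 4. For miR-6908-5p the value was -0.072 with no scaling, -0.053 with spike-ins, -0.048 with the mean of probes and -0.067 in the deposited table, and for miR-6912-5p it was -0.20 by the scanner total. The contrast of both arms of a hairpin and its alternatives were not run, as no number had both arms tested.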
